A study of Sus scrofa with 12 samples.

Results

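The early response of IPEC-J2 cells to deoxyshikonin was examined by comparing 3 libraries of cells treated for 6 h at 5 µmol/L with 3 libraries of untreated cells at 6 h. These are 6 of the 12 libraries of the series, whose other 6 hold the same 2 groups at 24 h. IPEC-J2 is an established, non-transformed line of porcine jejunal epithelium, and deoxyshikonin is a naphthoquinone pigment of plants of the borage family. The controls are described as non-treated, so no vehicle is named for them. All libraries come from this 1 cell line, and nothing in the labels says whether the 3 libraries of a group came from separate cultures, so the p-values measure only the spread between these libraries. Expression was deposited as TPM, a length-scaled share of the transcripts of each library that sums to 1000000. Of 32518 gene identifiers, the 11686 with a mean of at least 1 TPM over the 6 libraries were tested, and 9606 of these could be given a symbol.

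Naphthoquinones can react with protein thiols and cycle between oxidised and reduced forms. Animal cells answer damage of this kind through several well-known programmes. Misfolded proteins release the heat shock factor HSF1, which switches on chaperone genes. Electrophiles modify KEAP1 and so free the transcription factor NRF2, which switches on genes of glutathione, thioredoxin, haem and iron metabolism. Stress in the endoplasmic reticulum activates the unfolded protein response, in which ATF6, XBP1 and ATF4 raise their own sets of genes. These programmes give the order of the results below.

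At 6 h the treated cells held far more transcripts of chaperones, ubiquitin, NRF2 targets and ferritin light chain, and fewer transcripts of cell cycle, sterol synthesis and keratin genes. An adjusted p-value under 0.05 (limma on log2(TPM + 1), Benjamini-Hochberg over all tested genes) was found for 8981 of 11686 genes, or 76.9%. Of these, 3242 were higher in treated cells (27.7% of tested genes) and 5739 lower (49.1%). A log2 change of at least 1 was also reached by 669 genes that rose (5.72%) and 1222 that fell (10.5%), together 16.2%. A log2 change of at least 4 was reached by 18 genes that rose and 5 that fell. Changes on this scale are smaller than the true ratio for genes of low TPM. With such a high share of calls, the size of a change and the order of the lists carry more than the fact of a call.

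TPM has a fixed total, so large gains in a few transcripts lower all other values. The tested genes had a median log2 change of -0.20. Rescaling by the median of ratios brought this to -0.06 and called 76.1% of genes, of which 4144 rose (35.5% of tested genes) and 4746 fell (40.6%). With quantile normalization 75.7% were called, 4166 upward (35.6%) and 4678 downward (40.0%). List counts below are given against the -0.20 of all genes, and any list whose direction changes with the scaling is named as such. In these bulk samples, fewer cells of a type and less RNA per cell cannot be told apart.

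**Figure D1:**
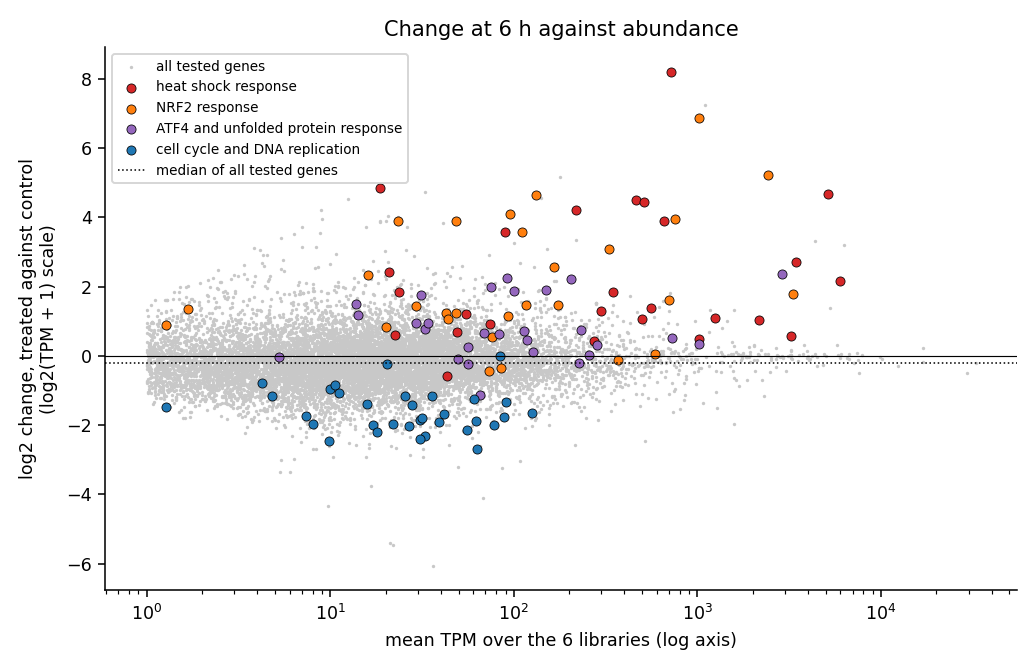
Log2 change at 6 h (vertical axis, log2(TPM + 1) scale, treated against control) against mean TPM over the 6 libraries (horizontal log axis), with 1 point per tested gene and 4 gene lists in colour. Of the heat shock members 25 of 26 lie above 0, of the NRF2 members 25 of 28, and of the cell cycle members 32 of 33 lie below it; the dotted line marks the median of all tested genes at -0.20.

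The libraries were first checked against the markers of the labelled cell type. Keratins and other epithelial genes were abundant in untreated cells, with 2126 to 2205 TPM for KRT8, 1647 to 1730 for KRT18 and 518 to 538 for CDH1, the adherens junction cadherin. The villus protein VIL1 was low, at 1.36 to 1.52 TPM. Markers of other cell types were mostly near 0. PTPRC, the pan-leukocyte phosphatase, reached at most 0.05 TPM in any library, DCN at most 0.08 and CDH5 at most 0.35. In the leukocyte list, 4 of 13 markers passed the abundance filter, and its summed level was 3487 to 3723 TPM in controls and 3425 to 3494 in treated cells, nearly all of it CD74 (3212 to 3442 in controls) and CD79A (272 to 279). The other 2 tested markers of that list, both of macrophages and monocytes, rose from low levels. CD14 had 1.24, 1.21 and 1.21 TPM without the compound and 7.13, 5.59 and 5.26 TPM with it, and CD68 had 0.08, 0 and 0.43 TPM and then 2.32, 3.22 and 2.33 TPM. CD68 could pass the abundance filter only through the treated group. Other myeloid markers of the list showed no such rise. CSF1R was at 0 to 0.02 TPM in both groups, and ITGAM at 0.34 to 0.48 TPM in controls and 0.2 to 0.48 in treated libraries. CD74 did not pass the threshold as deposited (log2 change -0.05), and was lower after quantile normalization, with -0.26 (limma adjusted p = 0.000478), but higher after median-of-ratios rescaling, with 0.11 (adjusted p = 0.0418). Among fibroblast and smooth muscle markers, 3 of 11 passed the filter, with sums of 287 to 293 TPM in controls and 145 to 157 in treated cells, nearly all of it TAGLN. The endothelial list summed to 11.4 to 16.5 TPM in controls and 21.2 to 25.8 in treated cells, and PECAM1 was its 1 tested member of 9. The part of these genes in the results below was not tested.

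Replicates were close to each other. The median absolute log2 difference over tested genes was 0.0712 to 0.115 within a group and 0.456 to 0.518 between groups. Between 18452 and 18710 genes were above 0 TPM in controls and between 19089 and 19707 in treated libraries. The 246 tested genes with a control mean under 1 TPM could pass the filter only through the treated group, and the 341 with a treated mean under 1 TPM only through the controls, so the 168 and 273 calls among them are bound to their selection. The lowest mean among tested genes was 1.00 TPM and the highest among the rest 0.998.

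Chaperone genes were among the largest rises. Of 28 genes chosen as the heat shock response, 26 were tested and 25 rose, against 27.7% of all tested genes. Their median log2 change was 1.61, and the libraries of the 2 groups did not overlap for any of the 26, which held for 79.7% of all tested genes. The count was the same after median-of-ratios rescaling and after quantile normalization. The 1 member that fell was HSF1 itself, with a log2 change of -0.59. The summed level of the list was 10770 ± 442 TPM (SD, n = 3) without the compound and 43550 ± 3920 TPM (SD, n = 3) with it.

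HSPA6 (ENSSSCG00000047932), a strictly stress-inducible HSP70, had 3.72, 3.74 and 4.18 TPM in the controls and 1428, 1575 and 1291 TPM in the treated libraries. Its mean was 369 times as high in treated cells, and its log2 change of 8.19 (SE 0.08, adjusted p = 3.38e-08) was the largest rise of any gene with a mean of at least 5 TPM. HSP70.2 (ENSSSCG00000029160), an inducible HSP70 of the major histocompatibility region, had 391, 384 and 385 TPM without the compound and 9956, 10806 and 9081 TPM with it. That is a 25.7-fold higher mean (log2 change 4.68, SE 0.06, adjusted p = 6.05e-08), and the treated level lies among the most abundant transcripts of these cells. HSPA1L, from the same region, rose from 19.9 to 21.3 TPM in controls to 443, 558 and 250 TPM in treated libraries, the widest spread among the leading chaperones. The HSP70 genes are close copies, and how the authors' counting shared reads between them is not given in the sources used here, so the split between HSP70.2, HSPA1L and HSPA6 is uncertain.

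The constitutive chaperones also rose, from a high base. HSPA8 (ENSSSCG00000015140), the housekeeping HSP70, had 2171, 2193 and 2187 TPM without the compound and 9435, 11064 and 8748 TPM with it, a 4.46-fold higher mean (log2 change 2.15, SE 0.08). HSP90AA1 (ENSSSCG00000002535), the inducible cytosolic HSP90, had 923, 897 and 896 TPM without the compound and 5728, 6649 and 5437 TPM with it, 6.56-fold higher. HSP90AB1, its constitutive partner, had a log2 change of 1.02. In each of these 3 genes the second treated library was the highest and the third the lowest, and all treated libraries lay above all controls.

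Co-chaperones and small heat shock proteins rose with them. DNAJB1, the HSP40 that delivers clients to HSP70, had 44.4, 42.5 and 44.4 TPM without the compound and 962, 1128 and 857 TPM with it (22.4-fold, log2 change 4.45). BAG3, which links HSP70 to autophagy, had 38.6, 37.1 and 37.3 TPM and then 878, 993 and 776 TPM (23.4-fold, log2 change 4.51). CRYAB (ENSSSCG00000036724), a small heat shock protein, went from 0.23, 0.46 and 0.31 TPM to 37.5, 35.5 and 38.04 TPM (log2 change 4.84, SE 0.08). With a control mean under 1 TPM, CRYAB could pass the filter only through the treated group, so its call is bound to its selection. Nucleotide exchange factor HSPH1 rose 15.2-fold and small heat shock protein HSPB8 12.8-fold. The smallest rises of the list were those of HSPA4, with a log2 change of 0.42, and of the mitochondrial co-chaperonin HSPE1, with 0.48.

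Promoters of these lists were searched for the binding letters of the named factors, as a description of the genes that moved together. The windows are the 250 bases before the most frequent start site of each gene's RefSeq mRNA models on Sscrofa11.1. Where start sites tied, the most upstream was taken. Windows were found by symbol for 8872 tested genes and 25 of the 26 tested heat shock members. The heat shock element was searched on both strands as GAA, TTC and GAA in a row with 2 free bases between units. It stood in 4 of the 25 heat shock promoters and in 23 of all 8872 (0.259%). The stretches that hold it are shown with 20 bases on each side and the matched letters in capitals, 5′ to 3′ on the gene's strand. They lie at chr9:49986783-49987002 (minus strand) for HSPA8, chr7:39237083-39237135 (plus) for HSP90AB1, chr15:101373696-101373748 (minus) for HSPD1 and chr9:23208705-23208767 (minus) for CHORDC1.
HSPA8: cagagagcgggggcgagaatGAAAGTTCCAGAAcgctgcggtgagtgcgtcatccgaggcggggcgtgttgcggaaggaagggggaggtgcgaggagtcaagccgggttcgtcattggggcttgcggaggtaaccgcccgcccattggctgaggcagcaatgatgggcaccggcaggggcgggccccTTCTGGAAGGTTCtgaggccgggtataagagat
HSP90AB1: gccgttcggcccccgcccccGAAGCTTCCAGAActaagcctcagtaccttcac
HSPD1: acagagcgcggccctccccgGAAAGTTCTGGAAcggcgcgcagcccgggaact
CHORDC1: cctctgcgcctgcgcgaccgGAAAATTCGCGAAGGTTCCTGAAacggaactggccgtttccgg

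HSPA8 holds 2 matches and CHORDC1, a co-chaperone of HSP90, holds 3 that overlap each other. The log2 changes of the 4 genes were 2.15 for HSPA8, 1.02 for HSP90AB1, 1.08 for the mitochondrial chaperonin HSPD1 and 1.22 for CHORDC1, none of them among the largest of the list. For the other 21 promoters, HSPA6, DNAJB1 and BAG3 included, these exact letters are not in the window, which says nothing about binding there.

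The largest single gain was in a ubiquitin gene. UBB (ENSSSCG00000018033) encodes a chain of ubiquitin, the tag that marks proteins for the proteasome. UBB had 1189, 1204 and 1266 TPM without the compound and 11222, 12651 and 10140 TPM with it. Its mean was 9.29-fold higher (log2 change 3.21, SE 0.08, adjusted p = 5.75e-07), and it gained 10117 TPM, more than any other gene. It consists of near-identical repeats, which other ubiquitin genes also hold, so the division of reads between them is uncertain.

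Further genes of protein quality control stood at the top of the ranking. ZFAND2A (ENSSSCG00000007554), an arsenite-inducible regulator of the proteasome, had 13.3, 15.1 and 12.4 TPM without the compound and 2187, 2349 and 2012 TPM with it, a 161-fold higher mean (log2 change 7.23, SE 0.08, adjusted p = 4.49e-08). CLU (ENSSSCG00000009668), the secreted chaperone clusterin, had 8.84, 7.99 and 9.67 TPM without the compound and 344, 387 and 318 TPM with it, 39.6-fold higher (log2 change 5.15). SQSTM1 (ENSSSCG00000014016), the autophagy receptor p62 and also an NRF2 target, had 127, 123 and 122 TPM without the compound and 4720, 4936 and 4434 TPM with it. Its 37.9-fold rise (log2 change 5.23, SE 0.04, adjusted p = 3.38e-08) made it one of the 8 named genes with the largest gain as well as one of the 8 with the largest rise.

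**Figure D2:**
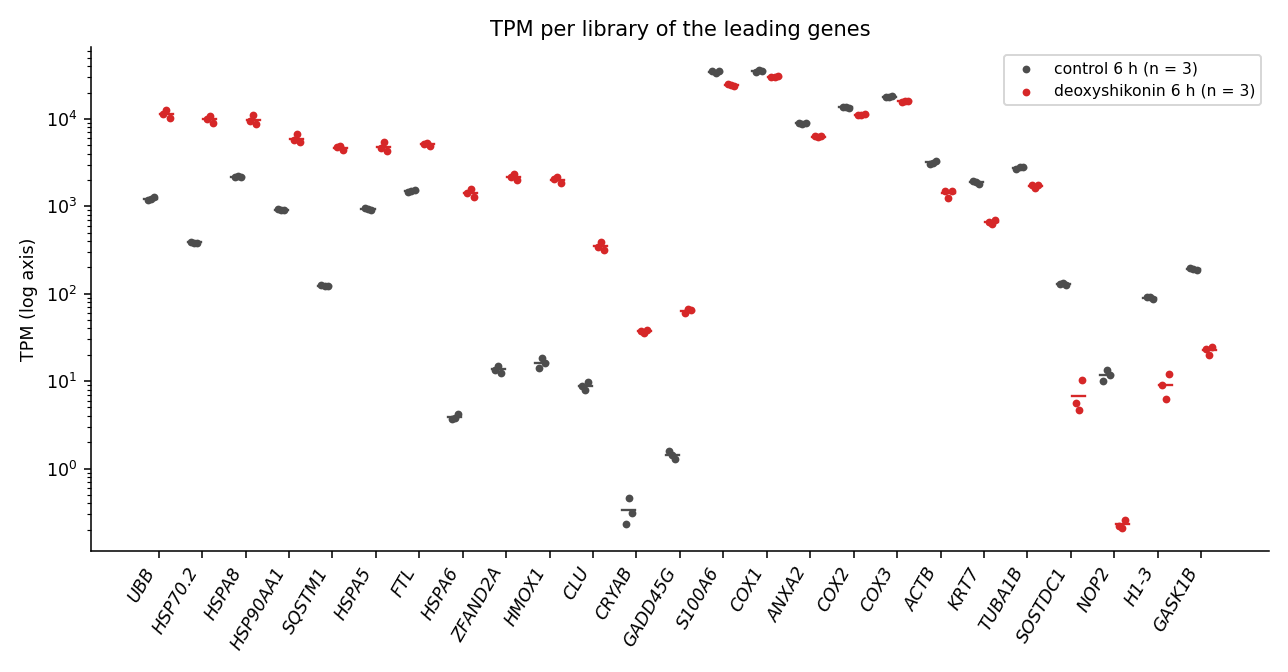
TPM per library (vertical log axis) of genes named in the text for the largest gain, rise, loss or fall of expression, with 3 control libraries in grey, 3 treated libraries in red and a short line at each group mean; genes at 0 TPM are left out. Treated and control libraries do not overlap for any gene shown, from UBB, which gained the most TPM, to GASK1B. Lack of overlap was a condition for naming the rises and falls, and it held for 79.7% of all tested genes.

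The NRF2 list moved nearly as far as the chaperones. Of 32 genes, 28 were tested, 24 rose and 3 fell, against 27.7% and 49.1% of all tested genes. The median log2 change of the list was 1.47. After median-of-ratios rescaling 25 rose and 1 fell, against 35.5% and 40.6% of all tested genes. Its members GPX2 and PIR, with control means of 0.50 and 0.59 TPM, could pass the filter only through the treated group. The summed level of the list was 3750 ± 68.7 TPM (SD, n = 3) without the compound and 17970 ± 699 TPM (SD, n = 3) with it. In treated cells SQSTM1 and FTL made up more of this sum than the other members together.

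The largest rise of the list was in haem breakdown. HMOX1 (ENSSSCG00000039745), haem oxygenase 1, had 14.2, 18.2 and 16.3 TPM without the compound and 2055, 2163 and 1854 TPM with it, a 125-fold higher mean (log2 change 6.88, SE 0.09, adjusted p = 6.58e-08). FTL (ENSSSCG00000003153), the light chain of the iron store ferritin, had 1441, 1489 and 1530 TPM and then 5130, 5280 and 4926 TPM (3.44-fold, log2 change 1.78). BLVRB, biliverdin reductase B, had a log2 change of 2.55. Among other genes of metal handling, the iron exporter SLC40A1 (ferroportin) rose from 12.6 ± 0.215 to 79.0 ± 0.987 TPM (SD, n = 3 each). The transferrin receptor TFRC, which takes up iron, fell from 222 ± 6.05 to 115 ± 7.3 TPM (SD, n = 3 each). The zinc importer SLC39A10 also fell, with a log2 change of -1.19, and the copper exporter ATP7B rose with 1.30. In this list of metal genes, 6 of 11 tested members rose and 5 fell, against 27.7% and 49.1% of all tested genes.

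Glutathione and thioredoxin genes rose together. SLC7A11, the cystine importer, had 9.22, 10.2 and 9.78 TPM without the compound and 182, 183 and 177 TPM with it (18.6-fold, log2 change 4.08, SE 0.04). The 2 subunits of glutamate-cysteine ligase, the first step of glutathione synthesis, rose by similar amounts. GCLC went from 2.10 ± 0.242 to 44.7 ± 1.45 TPM and GCLM from 5.29 ± 0.195 to 91.5 ± 3.47 TPM (SD, n = 3 each), with log2 changes of 3.89 and 3.88. SRXN1, sulfiredoxin, had 90.6, 88.3 and 91.9 TPM and then 1421, 1470 and 1350 TPM (15.7-fold). TXNRD1, thioredoxin reductase, had a log2 change of 3.09, and PRDX1, a peroxiredoxin, 1.61.

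NADPH and quinone-handling genes were the third group of the list. NQO1, which reduces quinones by 2 electrons, had 8.42, 9.69 and 9.71 TPM without the compound and 259, 249 and 252 TPM with it (27.3-fold, log2 change 4.63, SE 0.06, adjusted p = 6.05e-08). PGD of the oxidative pentose phosphate pathway had a log2 change of 1.48, and malic enzyme ME1 1.14. Of the non-oxidative enzymes, TKT had -0.11 and TALDO1 0.06, which did not pass the threshold. Rescaling by the median of ratios changed both calls, to 0.05 for TKT (limma adjusted p = 0.185) and 0.22 for TALDO1 (adjusted p = 0.000947). KEAP1, the inhibitor of NRF2, rose by 1.23, and NFE2L2, which encodes NRF2, by 0.54. The aldose reductase AKR1B1 and the transporter ABCC3 fell, with log2 changes of -0.44 and -0.34, but the call of ABCC3 was lost after median-of-ratios rescaling, with -0.18 (limma adjusted p = 0.103).

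The antioxidant response element, bound by NRF2 with small MAF proteins, was searched as TGACNNNGC on both strands. These letters can overlap an AP-1 site, which was not searched. They stood in 4 of 27 NRF2 promoters and in 985 of all 8872, so the share in the list is near that of all promoters in this window. The matches lie within chr6:17292732-17292780 (plus strand) for NQO1, chr7:27209363-27209411 (plus) for GCLC, chr1:82799764-82799812 (plus) for ME1 and chr6:70675606-70675654 (plus) for PGD. They are shown because NQO1 and GCLC are among the strongest rises of the list, with the matched letters in capitals.
NQO1: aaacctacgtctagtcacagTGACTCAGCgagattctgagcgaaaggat
GCLC: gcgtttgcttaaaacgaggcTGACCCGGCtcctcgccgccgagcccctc
ME1: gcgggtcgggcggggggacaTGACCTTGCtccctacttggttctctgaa
PGD: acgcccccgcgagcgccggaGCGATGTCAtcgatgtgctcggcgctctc

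Genes of xenobiotic metabolism outside the NRF2 list changed less. Of 13 tested members, 8 rose and 3 fell, against 27.7% and 49.1% of all tested genes, with a median log2 change of 0.41. POR, the electron donor of cytochromes P450, went from 62.4 ± 1.82 to 164 ± 2.88 TPM, and the glutathione transferase GSTO1 from 275 ± 8.6 to 666 ± 10.6 TPM (SD, n = 3 each). Quinone reductase NQO2 went the other way from NQO1, from 36.7 ± 1.8 to 18.6 ± 2.16 TPM (SD, n = 3 each). TIPARP, a target of the aryl hydrocarbon receptor, had a log2 change of 0.89, and CYP1A1, the standard target, 0.41.

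The unfolded protein response and ATF4 targets rose less than the cytosolic chaperones. Of 28 tested members, 22 rose and 3 fell, against 27.7% and 49.1% of all tested genes, with a median log2 change of 0.69. After median-of-ratios rescaling 23 rose and 1 fell, against 35.5% and 40.6% of all tested genes. HSPA5 (ENSSSCG00000005601), the HSP70 of the endoplasmic reticulum, had 964, 943 and 909 TPM without the compound and 4700, 5444 and 4341 TPM with it (5.14-fold, log2 change 2.36, SE 0.08). Other chaperones of that compartment changed less. HSP90B1 had a log2 change of 0.52 and CALR 0.33, PDIA4 had 0.03 and did not pass the threshold, and PDIA6 fell with -0.21. After median-of-ratios rescaling PDIA4 was higher, with 0.19 (limma adjusted p = 0.0011), and PDIA6, with -0.05 (adjusted p = 0.156), was no longer called.

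Among the other large rises of the list were transcription factors. ATF3, a stress-induced repressor, went from 31.2 ± 2.66 to 151 ± 6.9 TPM (log2 change 2.24), and DDIT3, the factor CHOP, from 29.8 ± 2.5 to 120 ± 11.5 TPM (log2 change 1.98, SD, n = 3 each). SLC3A2, the partner of SLC7A11 in cystine import, had 66.8, 73.8 and 74.7 TPM and then 345, 332 and 330 TPM (4.67-fold). PPP1R15A, which restores translation, had a log2 change of 1.91, HERPUD1 1.88 and TRIB3 1.75. Amino acid synthesis genes moved less, with 0.76 for ASNS and 0.64 for PSAT1, and PHGDH, with -0.05, did not pass the threshold, though it was higher after quantile normalization, with 0.22 (limma adjusted p = 0.0163). VLDLR fell most in the list, with -1.12.

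The endoplasmic reticulum stress response element was searched on both strands as CCAAT and CCACG with 9 free bases between them. It stood in 5 of 27 promoters of the list (18.5%) and in 10 of all 8872 (0.113%). The 5 genes are CALR, CRELD2, HSP90B1, PDIA6 and XBP1. Those of XBP1, the splicing-activated factor, at chr14:46016570-46016628 (minus strand) and HSP90B1 at chr5:80531017-80531171 (minus) are shown, with the matched letters in capitals.
XBP1: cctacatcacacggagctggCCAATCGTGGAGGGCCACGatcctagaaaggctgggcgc
HSP90B1: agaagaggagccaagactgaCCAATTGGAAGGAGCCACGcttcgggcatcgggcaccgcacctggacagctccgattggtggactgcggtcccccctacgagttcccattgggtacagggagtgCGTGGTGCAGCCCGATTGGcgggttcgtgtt

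The log2 changes of these 5 genes were low within the list: 0.46 for XBP1, 0.52 for HSP90B1, 0.33 for CALR, -0.21 for PDIA6 and -0.24 for CRELD2. After median-of-ratios rescaling CRELD2 was no longer called either, with -0.09 (limma adjusted p = 0.217). The genes with the strongest rises, HSPA5 included, do not hold these exact letters in the window, which says nothing about binding there.

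Early response transcription factors were divided. Of 23 tested, 12 rose and 6 fell, against 27.7% and 49.1% of all tested genes, and the median log2 change was 0.21. FOSB, an AP-1 subunit, rose from 0.50, 0.46 and 0.64 TPM to 19.3, 12.9 and 19.2 TPM (log2 change 3.54, SE 0.16), and it could pass the filter only through the treated group. MAFF, a small MAF protein, went from 14.4 ± 0.62 to 75.1 ± 6.23 TPM, ZFP36, which destabilises cytokine mRNAs, from 61.5 ± 2.28 to 276 ± 12.5 TPM, and the phosphatase DUSP1 from 26.1 ± 0.49 to 113 ± 4.39 TPM (SD, n = 3 each). JUN had a log2 change of 1.76 and FOSL1 1.53. FOS, with 0.13, and EGR1, with 0.19, did not pass the threshold, but after quantile normalization both were higher, with 0.27 and 0.44 (limma adjusted p = 0.04 and 0.0145). MYC fell with -0.98, DUSP6 with -1.01 and KLF10 with -1.27.

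Genes of the NF-κB and cytokine list rose in 14 of 19 tested cases and fell in 4, against 27.7% and 49.1% of all tested genes. The median log2 change of the list was 0.53. CXCL8, the neutrophil chemokine IL-8, had 35.4, 36.5 and 38.6 TPM without the compound and 219, 220 and 224 TPM with it (6-fold, log2 change 2.55, SE 0.04). RELB, an NF-κB subunit, had a log2 change of 1.97, CSF3 1.57 and NFKBIZ 1.46. Other cytokines fell. IL1A went from 12.03 ± 0.263 to 4.08 ± 0.46 TPM and IL6 from 6.02 ± 0.562 to 2.19 ± 0.875 TPM (SD, n = 3 each). Host defence peptides could hardly be assessed: 13 of 40 symbols were in the table, 9 of these were at 0 in all 6 libraries, DEFB1 included, and 2 were tested. The antiprotease SLPI fell from 22.9 ± 1.53 to 14.3 ± 0.935 TPM, and lysozyme LYZ, at 45.3 ± 3.94 and 49.4 ± 1.28 TPM (SD, n = 3 each), did not pass the threshold as deposited but was higher under both other scalings, with 0.28 after median-of-ratios rescaling (limma adjusted p = 0.00492).

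**Figure D3:**
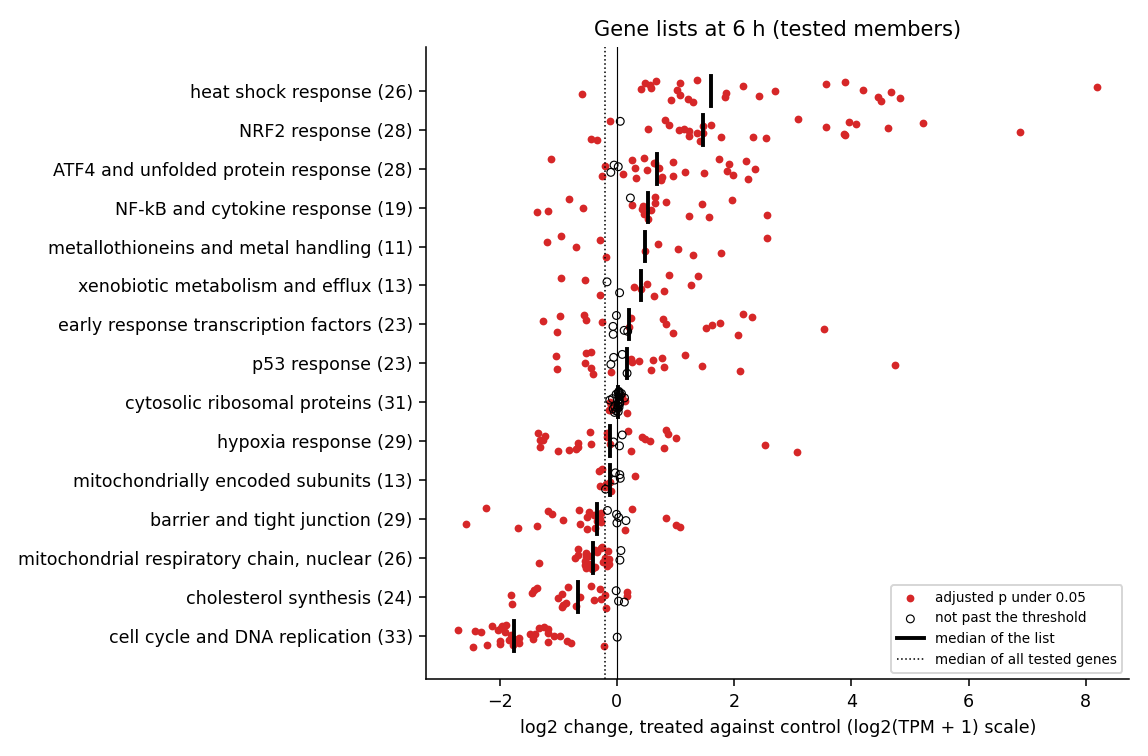
Log2 change at 6 h (horizontal axis, log2(TPM + 1) scale) of each tested member of the pathway lists with at least 5 tested members, ordered by their median (thick bar), with the number tested in brackets. The lists of cell type markers are left out. Filled points passed the adjusted p threshold of 0.05 (limma), and the heat shock list, with a median of 1.61, and the cell cycle list, with a median of -1.75, lie at the ends.

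Damage and growth arrest genes of the p53 list moved in both directions, 11 of 23 tested members up and 8 down. Of all tested genes, 27.7% rose and 49.1% fell. GADD45G (ENSSSCG00000035249), a growth arrest gene, had 1.60, 1.43 and 1.30 TPM without the compound and 59.6, 67.7 and 65.3 TPM with it, a 44.5-fold higher mean (log2 change 4.74, SE 0.07, adjusted p = 1.05e-07). CCNG2, an atypical cyclin of resting cells, went from 6.22 ± 0.397 to 30.0 ± 2.53 TPM (SD, n = 3 each), and GADD45B had a log2 change of 1.46. The standard p53 targets moved less. CDKN1A had 0.58, BBC3, with 0.18, and MDM2, with -0.10, did not pass the threshold (BBC3 did after quantile normalization, with 0.42, limma adjusted p = 0.0103), and the repair gene DDB2 fell with -1.03.

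Cell cycle and DNA replication genes fell almost without exception. Of 33 tested, 32 fell and 0 rose, against 49.1% of all tested genes that fell, and the median log2 change was -1.75. Under median-of-ratios rescaling and quantile normalization 31 fell and 1 rose, where 40.6% and 40.0% of all tested genes fell. The member that did not pass the threshold was CDK2, with 0.01, which was higher after median-of-ratios rescaling, with 0.17 (limma adjusted p = 0.00285). The summed level of the list was 1793 ± 17.9 TPM (SD, n = 3) without the compound and 589 ± 41.5 TPM (SD, n = 3) with it.

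The deepest fall of the list was that of MCM4, a subunit of the replicative helicase. It had 107, 112 and 111 TPM without the compound and 16.1, 14.4 and 17.9 TPM with it, a log2 change of -2.70 (SE 0.08, adjusted p = 7.93e-07). MCM3 went from 52.7 ± 1.12 to 9.10 ± 1.03 TPM and MCM2 from 55.5 ± 1.41 to 10.4 ± 0.631 TPM (SD, n = 3 each). Within the same complex, MCM7 had -1.33 and MCM6 -1.17. Mitotic genes fell as well. AURKB, the kinase of the chromosomal passenger complex, had 17.7, 19.4 and 15 TPM and then 2.61, 1.83 and 2.69 TPM (log2 change -2.45), CDC20 had -2.00, PLK1 -1.98 and CCNB1 -1.77. G1 cyclins fell less evenly, with -1.66 for CCND1 and -0.79 for CCNE1, and the mitotic checkpoint kinase BUB1 fell least, with -0.23, a call lost after median-of-ratios rescaling (-0.07, limma adjusted p = 0.174). The E2F letters GGCGGGAA stood in 4 of 31 promoters of the list (12.9%) and in 348 of all 8872 (3.92%), on both strands, in CDT1, E2F2, MCM3 and RRM1. That of MCM3, the largest fall of the 4, lies within chr7:46104512-46104559 (minus strand), with the match in capitals, where the motif reads on the opposite strand.
MCM3: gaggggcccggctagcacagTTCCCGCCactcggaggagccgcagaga

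Sterol and fatty acid synthesis genes were lower. Of 24 tested, 19 fell and 2 rose, against 49.1% and 27.7% of all tested genes, with a median log2 change of -0.66. After median-of-ratios rescaling 16 fell and 3 rose, against 40.6% and 35.5% of all tested genes. LSS, lanosterol synthase, went from 58.7 ± 1.42 to 16.2 ± 2.09 TPM, FASN, fatty acid synthase, from 192 ± 8.2 to 55.1 ± 6.26 TPM, and the desaturase SCD from 518 ± 7.71 to 196 ± 18.3 TPM (SD, n = 3 each). SREBF1, which drives fatty acid genes, fell with -1.36 and SREBF2, which drives sterol genes, with -0.83.

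Junction genes of the epithelial barrier fell in 19 of 29 tested cases and rose in 5, against 49.1% and 27.7% of all tested genes. The median log2 change of the list was -0.34. After median-of-ratios rescaling 17 junction genes were lower and 7 higher, against 40.6% and 35.5% of all tested genes. Members of 1 family went apart. CLDN6, a claudin of immature epithelia, had 347, 372 and 381 TPM without the compound and 62.5, 50.7 and 70.5 TPM with it (log2 change -2.58, SE 0.11). CLDN1, a sealing claudin, went from 152 ± 5.97 to 46.6 ± 5.37 TPM (SD, n = 3 each). CLDN4, also a sealing claudin and the most abundant member of the list, went the other way, with 639, 642 and 659 TPM without the compound and 1380, 1273 and 1251 TPM with it (log2 change 1.01, SE 0.04). Among the scaffold proteins of tight junctions, TJP3 fell with -2.24 and TJP1 with -0.65. The transmembrane protein OCLN fell with -0.47, and F11R, the junctional adhesion molecule A, rose with 0.83.

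Of the epithelial markers, 7 of 10 tested fell and 3 rose, against 49.1% and 27.7% of all tested genes. This list shares CLDN3, CLDN4, CLDN7 and CDH1 with the barrier list. The summed level of the epithelial markers was 9103 ± 89.5 TPM (SD, n = 3) without the compound and 5555 ± 132 TPM (SD, n = 3) with it. KRT7 (ENSSSCG00000038966), a keratin of simple epithelia, had 1959, 1893 and 1796 TPM without the compound and 655, 633 and 694 TPM with it (log2 change -1.51, SE 0.05, adjusted p = 9.44e-07). KRT18 had a log2 change of -1.05 and KRT8, its partner in filaments, -0.86. CDH1 rose with 0.14 and the epithelial factor ELF3 with 0.53.

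Hypoxia and glycolysis genes were divided, and their balance depended on the scaling. Of 29 tested, 11 rose and 15 fell, against 27.7% and 49.1% of all tested genes. After median-of-ratios rescaling 13 rose and 12 fell, against 35.5% and 40.6% of all tested genes. ADM, adrenomedullin, had 31.6, 31.5 and 30.9 TPM without the compound and 272, 291 and 255 TPM with it (8.71-fold, log2 change 3.08). EPAS1, which encodes HIF-2α, went from 1.73 ± 0.133 to 14.7 ± 0.996 TPM (SD, n = 3 each). HIF1A fell with -0.44. Of the glycolytic enzymes, PFKL fell from 155 ± 1.61 to 60.3 ± 5.59 TPM and LDHA from 1194 ± 34.1 to 496 ± 23.5 TPM (SD, n = 3 each). ENO1, with 0.05, did not pass the threshold as deposited but was higher after median-of-ratios rescaling, with 0.21 (limma adjusted p = 0.000448).

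Nuclear genes of the respiratory chain were lower in 24 of 26 tested cases, against 49.1% of all tested genes. The median log2 change of the list was -0.40. After median-of-ratios rescaling 16 were lower and 2 higher, against 40.6% and 35.5% of all tested genes. CYC1, cytochrome c1 of complex III, stood apart at -1.33, from 306 ± 7.67 to 122 ± 15.7 TPM (SD, n = 3 each), and the next was NDUFB10 of complex I with -0.71. The 13 mitochondrially encoded subunits summed to 118270 ± 1260 TPM (SD, n = 3) without the compound and 107490 ± 1720 TPM (SD, n = 3) with it. With TPM as deposited 7 of them fell and 1 rose, against 49.1% and 27.7% of all tested genes. After median-of-ratios rescaling 2 fell and 5 rose, against 40.6% and 35.5%. After quantile normalization 8 fell and 0 rose, against 40.0% and 35.6%, so no direction can be given for these subunits. ND3 of complex I, with 5179, 5051 and 5158 TPM without the compound and 6119, 6607 and 6450 TPM with it, had the highest change of the 13 with TPM as deposited (log2 change 0.32; 0.04 after quantile normalization, limma adjusted p = 0.454), and ND5 the lowest (-0.31). The 31 tested cytosolic ribosomal protein genes had a median of 0.02, with 3 higher and 5 lower as deposited, 24 higher and 0 lower after rescaling, and 0 higher and 19 lower after quantile normalization, so their direction also depends on the scaling.

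The largest single falls were of mixed kinds. Some rested on values listed at 0, which can be failed estimates. ENSSSCG00000029549, which has no symbol, had 118, 54.6 and 43.7 TPM in controls and 0 in each of the treated ones. The small nucleolar RNAs SNORA61 (49.2, 45.5 and 36.7 TPM in controls) and SNORD97 (37.1, 34.4 and 56.1 TPM) were likewise listed at 0 in treated cells, as was METTL23 (17.9, 18.5 and 21.9 TPM). ENSSSCG00000029549 and SNORA61 were also listed at 0 in every library at 24 h, untreated controls included. SNORD97 was also listed at 0 in 2 of 3 libraries of each group at 24 h. NOP2, a nucleolar methyltransferase, had 10.1, 13.3 and 11.9 TPM in 6 h controls and 0.22, 0.21 and 0.26 TPM in treated cells, and in the 24 h controls it was at 0 to 0.17 TPM. B4GAT1, a glucuronyltransferase, had 4.10, 13.8 and 13.5 TPM without the compound and 1.04, 0 and 0 TPM with it. With treated means under 1 TPM, the genes named so far in this paragraph could pass the filter only through the controls. Of the 57 tested genes listed at 0 in any of the 6 libraries while reaching 20 TPM in any other, 7 were called. Of all tested genes, 76.9% were called. ENSSSCG00000029549, SNORA61, SNORD97 and METTL23 are among these 7.

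Falls of well-measured genes were led by SOSTDC1 (ENSSSCG00000021126), a secreted antagonist of BMP and WNT signals. It had 129, 133 and 127 TPM without the compound and 5.65, 4.68 and 10.2 TPM with it, a log2 change of -4.12 (SE 0.23, adjusted p = 8.19e-06). GASK1B (ENSSSCG00000008873), a Golgi-associated kinase-like protein, had 197, 193 and 187 TPM and then 23.6, 19.7 and 24.6 TPM (log2 change -3.04, SE 0.08). H1-3 (ENSSSCG00000001137), a replication-dependent linker histone, had 91.0, 91.9 and 86.0 TPM and then 9.12, 6.28 and 11.98 TPM (log2 change -3.20, SE 0.19). Histone genes are close copies of each other, so the value of H1-3 may include reads of its relatives.

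The transcripts gained and lost were unequally spread over genes. Over all 32518 identifiers, the treated libraries gained 159511 TPM in some genes and lost as much in others, equal by construction. The top 28 genes carried 50% of the gain, whereas 208 were needed for 50% of the loss. The 10 largest gains made up 36.9% of the gain and the 10 largest losses 18.3% of the loss. Of the gain, 20.6% lay in the heat shock list and 8.96% in the NRF2 list. After median-of-ratios rescaling the gain was 217609 TPM and the loss 105788 TPM.

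**Figure D4:**
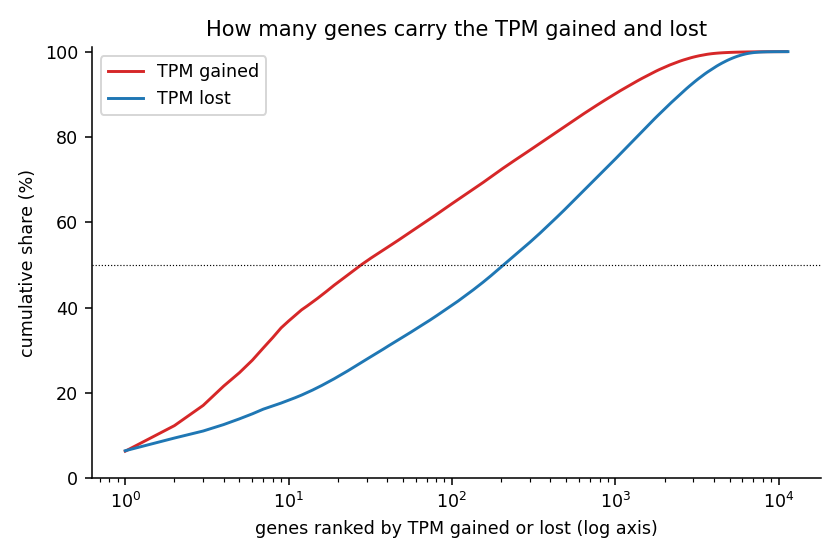
Cumulative share of all TPM gained (red) and lost (blue) at 6 h (vertical axis, %) over genes ranked by their difference in mean TPM (horizontal log axis), from all identifiers of the table. The gain reaches the dotted 50% line at 28 genes and the loss at 208.

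Among the largest losses were the most abundant transcripts of untreated cells. S100A6 (ENSSSCG00000021084), a calcium-binding protein, had 35151, 33708 and 35040 TPM without the compound and 24879, 24575 and 23557 TPM with it, so that its mean fell by 10296 TPM. Its log2 change was -0.51 (SE 0.03, adjusted p = 8.6e-06), but -0.06 (adjusted p = 0.305) after quantile normalization, which ties the values of top-ranked genes to their ranks. ANXA2, annexin A2, a binding partner of the S100 family, went from 8896 ± 84.7 to 6265 ± 63.1 TPM (SD, n = 3 each), a log2 change of -0.51. Cytoskeletal genes followed. ACTB, beta actin, had 3039, 3153 and 3314 TPM and then 1512, 1234 and 1514 TPM (log2 change -1.16, SE 0.08), and TUBA1B, an alpha tubulin, 2673, 2790 and 2848 TPM and then 1754, 1624 and 1764 TPM (log2 change -0.69).

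The mitochondrial transcripts COX1, COX2 and COX3, subunits of cytochrome c oxidase, were also among the 8 largest losses. COX1 went from 35170 ± 844 to 30420 ± 590 TPM (SD, n = 3 each), a log2 change of -0.21, but after median-of-ratios rescaling the change was -0.05 (adjusted p = 0.16) and after quantile normalization 0.06 (adjusted p = 0.305). COX2 had -0.28 as deposited, -0.12 after median-of-ratios rescaling (adjusted p = 0.00531) and -0.16 after quantile normalization (adjusted p = 0.0605). COX3 had -0.18 as deposited, which became -0.02 on median-of-ratios rescaling (adjusted p = 0.54) and -0.20 on quantile normalization (adjusted p = 4.77e-05). Each of the 3 losses was thus called under some scalings and not under others.

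Across abundance classes, the share of calls rose from rare to common genes and then dropped. It was 64.8% of 2527 genes between 1 and 5 TPM, 78.3% of 4010 genes between 5 and 20 TPM, 81.1% of 3903 genes between 20 and 100 TPM and 86.9% of 983 genes between 100 and 500 TPM. Of the 263 genes at 500 TPM or more, 70.0% were called. This drop was smaller after median-of-ratios rescaling, with 147 of the 263 higher and 62 lower. Between 100 and 500 TPM, 404 of 983 were then higher and 408 lower. The median standard error fell across these classes from 0.11 to 0.03. The median absolute log2 change was 0.50 in the lowest class and 0.20 in the highest, where ribosomal protein genes and mitochondrial transcripts lie.

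The direction also varied with abundance. In the lowest class 20.2% of genes rose and 44.6% fell, and in the highest 29.7% rose and 40.3% fell. The median log2 change was -0.25 in each of the 2 lowest classes and -0.02 in the highest. After median-of-ratios rescaling these medians were -0.14 and -0.10 for the lowest pair and 0.14 for the highest. Rescaling also reversed the balance of calls in the highest class, with 147 of 263 genes higher and 62 lower. Between 20 and 100 TPM it gave 1612 higher and 1564 lower of 3903. The remaining classes kept more falls than rises. Of all 11686 tested genes, 4144 were then higher (35.5%) and 4746 lower (40.6%). The highest class held 60% of all TPM gained and 39.5% of all TPM lost, and 29 of its genes rose and 15 fell by at least 1 log2 unit.

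**Figure D5:**
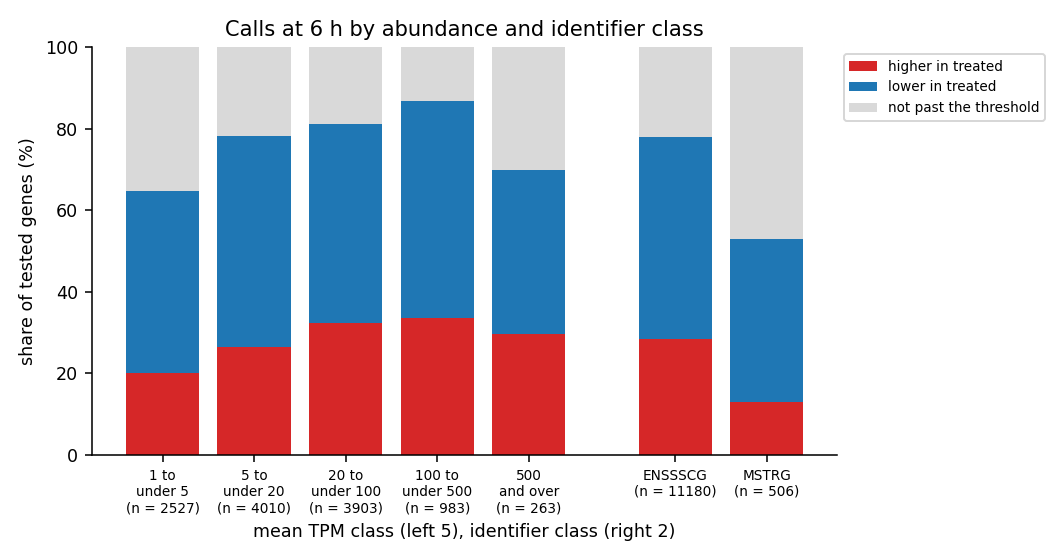
Share of tested genes (vertical axis, %) that were higher, lower or not past the adjusted p threshold of 0.05 (limma), for 5 classes of mean TPM and for the 2 identifier classes, with the number of genes under each bar. Calls, with TPM as deposited, are most frequent between 100 and 500 TPM (86.9%) and least frequent among MSTRG identifiers (53%).

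MSTRG identifiers, in the style that StringTie gives to assembled loci, were called less often than Ensembl genes, with a wider error. Of 610 in the table, 506 were tested and 53% were called, 66 higher and 202 lower. Of 11180 tested Ensembl identifiers, 77.9% were called, 3176 higher and 5537 lower. The median standard error was 0.16 for MSTRG and 0.07 for Ensembl identifiers. Their median TPM also differed, with 6.96 for MSTRG and 16.7 for Ensembl identifiers, but the gap in calls was present in the 4 classes below 500 TPM as well: between 20 and 100 TPM, 38.6% of 114 MSTRG and 82.3% of 3789 Ensembl identifiers were called. Among the 6 MSTRG identifiers at 500 TPM or more the order was the other way, with 83.3% called against 69.6% of 257. The gap itself was not tested.

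The tested Ensembl genes summed to a mean of 974970 TPM in controls and 980270 TPM in treated libraries, and the MSTRG loci fell. All identifiers are Ensembl or MSTRG and the total is fixed, so over all of them the Ensembl sum rises by construction where the MSTRG sum falls. The MSTRG sum was 23820, 22991 and 23966 TPM in untreated libraries, then 18025, 17831 and 18493 TPM in treated libraries. Treated libraries lay below all controls, and the difference of -5476 TPM had p = 0.1 in an exact two-sided permutation test (0.1 after adjustment over 4 such tests), the smallest value that 3 libraries against 3 allow. After median-of-ratios rescaling the difference was -3153 TPM, also with an exact p = 0.1. The median log2 change was -0.35 for MSTRG and -0.19 for Ensembl identifiers, and -0.21 and -0.05 after median-of-ratios rescaling. The loci held 3.91% of all TPM lost and 0.489% of all TPM gained. The other 3 measures of library composition also gave p = 0.1 by the same exact test. The 10 most abundant genes held 16.2% ± 0.123 (SD, n = 3) of TPM in controls, against 15.1% ± 0.303 (SD, n = 3) in treated cells.

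The leading genes differed in their values at 24 h, which are given without a test. UBB had 1687, 1585 and 1669 TPM in treated cells at 24 h and 1554, 1479 and 1544 TPM in the 24 h controls. HMOX1 had 79.6, 93.6 and 102 TPM in treated cells at 24 h and 13.7, 13.5 and 15.3 TPM in controls. FTL, in contrast, had 4726, 5376 and 5739 TPM in treated cells at 24 h, near its 4926 to 5280 TPM at 6 h, with 1355, 1419 and 1481 TPM in controls. GADD45G had 91.9, 67.2 and 63.4 TPM in treated cells at 24 h and 1.39, 0.85 and 0.99 TPM in controls. KRT7, low at 6 h, had 1990, 2014 and 2073 TPM in treated cells and 1940, 1900 and 2069 TPM in controls at 24 h.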

How the data were processed

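The authors deposited 1 table of TPM for 32518 identifiers and 12 libraries, with 2 decimals. The submitters' processing notes name fastp, HISAT and RSEM with no version; the genome build and annotation are not given in the sources used here. TPM holds no sequencing depth, so no counting interval is given. Groups and replicate numbers came from the sample titles. Symbols came from a table of gene identifiers that matched 15029 identifiers.

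Values of the 6 libraries at 6 h were tested as log2(TPM + 1) with limma 3.58.1 in R 4.3.3 (2 groups, eBayes with trend, 4 residual degrees of freedom), with Benjamini-Hochberg adjustment. The test was also run on simulated data. Few genes were changed there and no total was fixed, so that run does not cover a response as wide as this. Size factors used 7384 genes with a mean of at least 10 TPM and no 0. Promoters came from RefSeq on Sscrofa11.1.

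Named by rule were the 8 symbols with the largest gain, loss, rise and fall (rise and fall among genes of at least 5 TPM, called and without overlap), the first identifier without symbol, and up to 4 members of each list with the largest changes; other members were named, after their values were seen, to show the spread. The comparison and the 20 lists (16 of pathways, 4 of markers) were chosen with earlier results of these data known. Single values of some genes that the rule names are not reported here.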

Additional observations from a re-analysis of the deposited data

How the results depend on the processing

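The numbers of genes called, higher and lower stayed within 1.5 times under every alternative of the comparison except the minimum log2 change of 1, which gave 1891, 669 and 1222 genes. Leaving out each library in turn gave 8476 to 8753 called genes. With no filter 10036 genes were called, with a fit of all 12 libraries 8881, and with a pseudocount of 0.1 8969. Rescaling moved the share of calls that were higher from 36.1% to 46.6%, and quantile normalization to 47.1%. Same-numbered control and treated libraries deviated from their group means with correlations of 0.0626, 0.0387 and 0.0534 across genes. The numbers were not taken as pairs because the labels state no pairing. With the replicate block 8674 genes were called, 3129 higher and 5545 lower, and each library correlated best with its own number.

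Rescaling by the median of ratios turned the difference in the summed TPM of mitochondrially encoded subunits from -10780 to 1815 TPM (exact permutation p = 0.2). It moved the TPM gained to 217609 and the TPM lost to 105788, because the rescaled libraries no longer share 1 total. RPS12 was higher by 0.14 log2 units as deposited and lower after quantile normalization, at -0.11 (limma adjusted p = 0.00857).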
